A study of Mus musculus with 6 samples.

Results

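The small leucine-rich proteoglycans are 10 of the 48733 named genes in these data: *Dcn*, *Bgn*, *Lum*, *Fmod*, *Omd*, *Ogn*, *Aspn*, *Prelp*, *Kera* and *Epyc*. They were chosen by gene name, each had a single feature in every library, and 8 of the 10 averaged 1 FPKM or more over the 6 libraries. FPKM is the number of sequenced fragments of a gene corrected for its length and for the depth of the library. *Kera* and *Epyc* did not reach that mean and were not part of the test across genes.

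Small leucine-rich proteoglycans are secreted proteins of the extracellular matrix. Their core is a curved stack of leucine-rich repeats that binds collagen fibrils, and many members carry chains of chondroitin, dermatan or keratan sulfate. In bone they set the spacing and width of collagen fibrils, bind growth factors of the TGF-beta family, and some of them bind mineral. The family is divided into classes by the spacing of cysteines near the start of the protein: *Dcn*, *Bgn* and *Aspn* belong to class I, *Lum*, *Fmod*, *Prelp*, *Kera* and *Omd* to class II, and *Ogn* and *Epyc* to class III.

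RNA-seq was performed on 3 libraries labelled bone and 3 labelled osteoblasts, all from the inbred Collaborative Cross strain CC016/GeniUnc, whose age and sex the labels do not give. The label bone stands for femoral cortical bone after the marrow had been spun out. The label osteoblasts stands for cultures of stromal cells from the bone marrow (BMSCs), which were kept for 8 days in osteogenic medium. This medium held dexamethasone at 10 nM, beta-glycerophosphate at 10 mM and ascorbic acid at 50 µg/ml. No group carries an engineered allele. Each library is named by its deposited label and replicate number (bone 1, osteoblasts 3), and nothing in the labels says which bone and culture came from the same mouse. Femora of 3 mice gave both the bone and the marrow, so that the 6 libraries stem from 3 animals. The tests between the labels treat the libraries as independent, and the p-values measure the spread between these libraries.

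The labels and the marker genes did not part the libraries in the same way. *Hbb-bt*, a beta-globin of red cells, was above 1000 FPKM in bone 3 and in osteoblasts 2 and 3 (34268 to 48650 FPKM) and at most 7.05 FPKM in bone 1 and 2 and osteoblasts 1. Beside *Hbb-bt*, which sets this division, the other 3 red cell markers found by name and all 7 neutrophil markers were higher in each of the former 3 libraries than in each of the latter 3. So were the 5 cartilage markers found by name, of 6 listed, and the 3 skeletal muscle markers found, of 5 listed. This order was that of 38.4% of all genes tested. The summed neutrophil markers were 14246 to 17226 FPKM in the former and 0.430 to 5.51 FPKM in the latter, and the cartilage markers 169 to 319 against 3.58 to 13.7 FPKM. The muscle markers summed to 221 to 943 FPKM in the former and to 0.0324 to 1.09 FPKM in the latter, where *Tnnt3* was listed at 0 in all 3. Of the 4 osteocyte markers tested, *Sost* was higher in the former (15.8 to 22.7 against at most 0.198 FPKM), and *Phex* and *Pdpn* overlapped. *Dmp1*, the most abundant of them, was lower (22.5 to 24.2 against 50.0 to 127 FPKM). Of the 6 osteoblast markers tested, *Ibsp* and *Alpl* were lower in the former. *Ibsp* was at 43.1 to 91.3 against 986 to 1278 FPKM, and *Alpl* at 66.0 to 94.1 against 95.4 to 205 FPKM. *Col1a1*, *Col1a2*, *Sp7* and *Runx2* overlapped. Of the 3 tendon markers tested, *Scx* and *Mkx* were lower in the former and *Thbs4* overlapped. The order lower in all of the former was that of 16.9% of all genes tested. A label of osteoblasts cultured from stroma therefore stands on 2 libraries with abundant globin RNA, and a label of bone on 2 libraries without it, and the label of every library was kept. Whether labels were exchanged between libraries was not tested, and each difference between the labels given here, its sign included, holds for the labels as deposited. The implied depth was 2.04 to 3.39 Gb of aligned bases per library, so that 3 pairs on a transcript of 1 kb gave 0.133 to 0.221 FPKM, a floor for counting error only.

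In GRCm38, the build of the deposited tables, 9 of the 10 genes lie near other members. *Dcn*, *Lum*, *Kera* and *Epyc* follow each other on Chr. 10 (plus strand), from 97479609 to 97682454. *Aspn*, *Omd* and *Ogn* lie on Chr. 13 (plus strand), from 49544443 to 49624501, a span of 80059 bp. *Prelp* and *Fmod* lie on Chr. 1, from 133910304 to 134048277, on opposite strands, and *Bgn* lies alone on Chr. X (plus strand), from 73483602 to 73495933. RefSeq on GRCm38.p6 annotates all 10 as protein-coding.

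The RefSeq promoter table (GRCm38.p6, 250 bases before and 50 after the start of transcription) holds 8 of the 10 genes and lacks *Dcn* and *Lum*. The promoters of the 3 neighbours on Chr. 13 are shown because these genes were high in the same libraries, and that of *Bgn* because it was the most abundant member by FPKM in 5 of 6 libraries. Each is on the plus strand, and capitals mark TATAAA or TGTGGT on either strand, the former the letters of a TATA box and the latter those of a RUNX site.

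Aspn, chr13:49544193-49544492: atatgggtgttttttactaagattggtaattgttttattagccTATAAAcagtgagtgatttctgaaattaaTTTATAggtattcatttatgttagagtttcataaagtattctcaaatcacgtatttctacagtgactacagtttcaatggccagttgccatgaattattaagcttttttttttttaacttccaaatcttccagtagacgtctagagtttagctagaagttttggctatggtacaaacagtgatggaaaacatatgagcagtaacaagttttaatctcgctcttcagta
Omd, chr13:49582212-49582511: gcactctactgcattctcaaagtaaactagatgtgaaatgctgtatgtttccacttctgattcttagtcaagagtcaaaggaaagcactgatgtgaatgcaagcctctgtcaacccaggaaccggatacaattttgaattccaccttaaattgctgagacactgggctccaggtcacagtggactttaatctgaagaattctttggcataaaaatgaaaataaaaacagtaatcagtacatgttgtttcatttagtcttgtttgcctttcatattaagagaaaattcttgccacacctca
Ogn, chr13:49607765-49608064: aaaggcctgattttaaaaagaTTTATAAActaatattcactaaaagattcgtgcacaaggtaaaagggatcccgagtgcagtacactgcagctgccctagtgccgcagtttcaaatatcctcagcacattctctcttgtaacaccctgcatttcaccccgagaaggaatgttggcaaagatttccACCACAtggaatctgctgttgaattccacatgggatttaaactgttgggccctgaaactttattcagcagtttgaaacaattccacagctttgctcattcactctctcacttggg
Bgn, chrX:73483351-73483650: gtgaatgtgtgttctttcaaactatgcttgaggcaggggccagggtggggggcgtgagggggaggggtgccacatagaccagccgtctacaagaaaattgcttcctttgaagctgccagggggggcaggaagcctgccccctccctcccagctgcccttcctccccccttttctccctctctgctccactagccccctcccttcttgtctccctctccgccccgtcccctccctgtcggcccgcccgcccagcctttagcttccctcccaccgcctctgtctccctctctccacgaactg

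The promoters of *Aspn*, *Omd* and *Ogn* contained 31%, 37.7% and 42.3% G and C, against 63.7% in that of *Bgn* and a median of 52.7% over 32851 promoters. Of all these promoters, 1.28% had less G and C than that of *Aspn* and 6.63% less than that of *Omd*. For *Ogn* this share was 14.9% and for *Bgn* 79.1%. TATAAA occurred on both strands in the windows of *Aspn* and *Ogn*, where the copies of *Ogn* overlap, and 13.6% of all promoters hold it. TGTGGT occurred once in *Ogn* and once in *Epyc* among the members, and in 16.8% of all promoters. GGGCGG occurred 3 times on the minus strand of the *Bgn* window and in 35.7% of all promoters. Of the other letters searched on both strands, CANNTG (72.3% of all promoters) was found in *Bgn*, *Fmod*, *Prelp*, *Ogn*, *Aspn* and *Epyc*, AAATTA (12.5%) in *Aspn* and *Epyc*, and TGANTCA (7.81%) in no member. These matches describe letters in a window and no bound factor.

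Among the class I genes, *Dcn* was abundant in 3 libraries and *Bgn* in all 6. *Dcn* encodes decorin, which binds type I collagen and TGF-beta and carries a single chondroitin or dermatan sulfate chain. *Dcn* was at 15.9, 8.56 and 81.5 FPKM in bone 1, 2 and 3, and at 7.81, 81.1 and 88.6 FPKM in osteoblasts 1, 2 and 3. The libraries at 81.1 FPKM and above were bone 3 and osteoblasts 2 and 3, so that each label held both high and low values. The mean was 35.3 ± 40.2 FPKM (SD, n = 3) under the label bone and 59.1 ± 44.6 FPKM (SD, n = 3) under the label osteoblasts. Within a library, *Dcn* was above 95.4 to 96.0% of the genes with at least 1 FPKM where it was high, and above 59.1 to 70.9% of them in bone 1 and 2 and osteoblasts 1.

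*Bgn* encodes biglycan, the closest relative of decorin in this class, which is rich in bone matrix and whose loss in mice lowers bone mass. *Bgn* was at 288, 139 and 114 FPKM in bone 1, 2 and 3, and at 337, 103 and 86.1 FPKM in osteoblasts 1, 2 and 3. In FPKM it was the highest member in every library except osteoblasts 3, where *Dcn* was, and by coverage it was the highest in all 6. Its values were spread 3.92-fold over the libraries, against 11.3-fold for *Dcn*, and the labels overlapped.

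*Aspn* encodes asporin, which binds collagen and calcium and restrains TGF-beta signalling. *Aspn* was at 75, 49.1 and 2.20 FPKM in bone 1, 2 and 3, and at 11.9, 2.15 and 2.27 FPKM in osteoblasts 1, 2 and 3. The 3 low libraries lay between 2.15 and 2.27 FPKM, and the 3 others between 11.9 and 75 FPKM. Osteoblasts 1, the lowest of these, was 5.22 times as high as the highest of the low libraries.

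**Figure D1:**
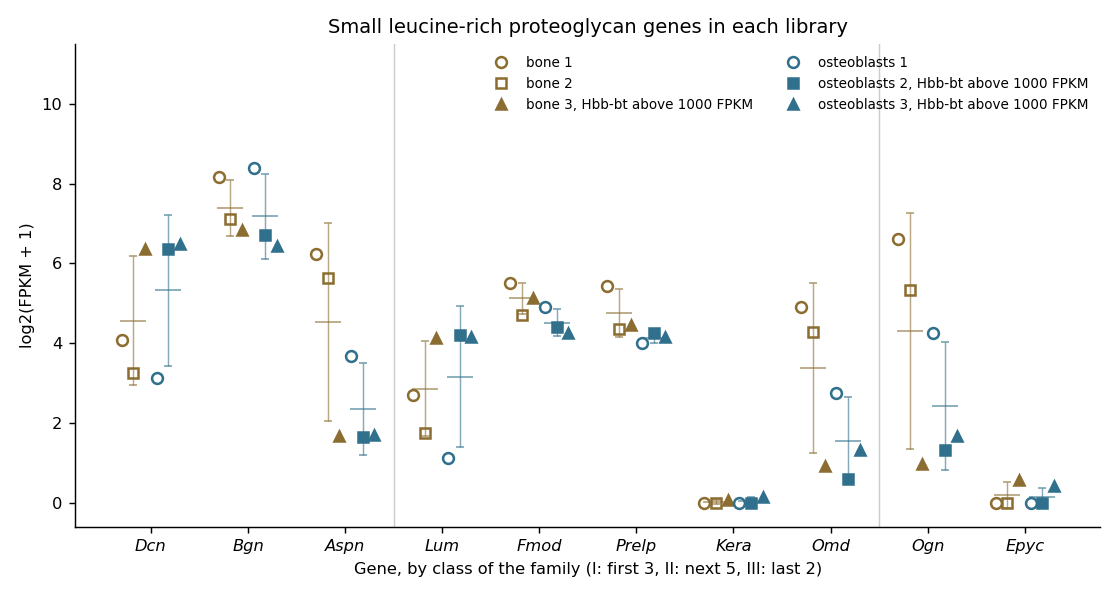
Each point is the log2(FPKM + 1) of one library for the 10 genes, ordered by class, brown for the label bone and blue for osteoblasts, filled where *Hbb-bt* exceeded 1000 FPKM. Horizontal marks with bars are the mean and SD of each label (n = 3), and filled points lie above the open ones for *Dcn* and *Lum* and below them for *Bgn*, *Aspn*, *Omd* and *Ogn*.

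In class II, *Lum* was high in the libraries where *Dcn* was high. *Lum* encodes lumican, a keratan sulfate proteoglycan that limits the width of collagen fibrils. It was at 5.55, 2.37 and 16.5 FPKM in bone 1, 2 and 3, and at 1.18, 17.4 and 16.8 FPKM in osteoblasts 1, 2 and 3. Its FPKM was 0.151 to 0.350 of that of *Dcn* in each library, a range far narrower than that of either gene. The ratio of *Lum* to *Dcn* was -1.89 ± 0.40 (SD, n = 3) as a log2 value under bone and -2.45 ± 0.26 (SD, n = 3) under osteoblasts (two-sided exact permutation p = 0.2, where 0.1 is the smallest p that 3 libraries against 3 allow).

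*Fmod* and *Prelp* varied least among the expressed members. *Fmod* encodes fibromodulin, which guides the growth and cross-linking of collagen fibrils, in tendon above all. *Fmod* was at 44.5, 25.3 and 34.2 FPKM in bone 1, 2 and 3, and at 28.8, 20.1 and 18.1 FPKM in osteoblasts 1, 2 and 3, a spread of 2.46-fold. *Prelp* encodes prolargin, a cartilage and basement membrane protein whose basic start binds heparan sulfate. *Prelp* was at 42.6, 19.5 and 21.1 FPKM in bone 1, 2 and 3, and at 15.0, 18.2 and 16.8 FPKM in osteoblasts 1, 2 and 3. In FPKM it was the only member whose labels did not overlap. The lowest value under the label bone was 1.37 FPKM above the highest under the label osteoblasts. After scaling to named genes, *Prelp* was lower in bone 3 than in osteoblasts 1, so its labels then overlapped. Its mean was 27.7 ± 12.9 FPKM (SD, n = 3) in bone and 16.6 ± 1.60 FPKM (SD, n = 3) in osteoblasts. Without scaling, the exact permutation test gave p = 0.1, the smallest possible. Of all 12112 genes tested, 0.438% were lower under the label osteoblasts without overlap and 0.479% were higher.

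*Omd* encodes osteomodulin, also called osteoadherin, a keratan sulfate proteoglycan of mineralized matrix with an acidic end that binds hydroxyapatite. *Omd* was at 28.9, 18.3 and 0.912 FPKM in bone 1, 2 and 3, and at 5.77, 0.520 and 1.49 FPKM in osteoblasts 1, 2 and 3. The lowest value stood for about 11.8 read pairs per kb of transcript, above the floor of 3. *Ogn*, of class III, encodes osteoglycin or mimecan, which takes part in collagen fibril formation. *Ogn* was at 96.7, 39.3 and 0.953 FPKM in bone 1, 2 and 3, and at 18.1, 1.51 and 2.18 FPKM in osteoblasts 1, 2 and 3. With 101-fold between its highest and lowest library, *Ogn* varied more than any other member above 0 in all libraries, followed by *Omd* with 55.6-fold and *Aspn* with 34.9-fold. All of these were low in bone 3 and in osteoblasts 2 and 3, highest in bone 1, then in bone 2, and intermediate in osteoblasts 1.

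The other members were at or near 0. *Kera*, which encodes the corneal proteoglycan keratocan, was listed at 0 in 4 libraries, at 0.0523 FPKM in bone 3 and at 0.116 FPKM in osteoblasts 3. Both values lie below the FPKM of 3 read pairs on 1 kb. *Epyc*, which encodes epiphycan of growth plate cartilage, was listed at 0 in the same 4 libraries and was at 0.483 FPKM in bone 3 and at 0.339 FPKM in osteoblasts 3. *Epyc* was above the floor in these 2 libraries, with about 8.08 and 5.76 pairs per kb. Neither *Kera* nor *Epyc* was detectable at this depth in bone 1 and 2 or in osteoblasts 1 and 2.

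The labels were compared with limma on log2(FPKM + 1) over 12112 genes, as the difference osteoblasts minus bone. Of the 8 members tested, 0 were called in either direction at an adjusted p under 0.05 (Benjamini-Hochberg), as were 0 of all genes in either direction (0% of those tested), and 0 of 8 members and 17 genes (0.14%) had an unadjusted limma p under 0.05. The estimate was negative for 6 of the 8 members, with a median log2 difference of -0.61 against 0.12 over all genes tested. The largest estimates were those of the Chr. 13 genes. *Aspn* differed by -2.17 (SE 1.12, limma adjusted p = 0.999), with a 95% interval from -4.72 to 0.37. *Ogn* differed by -1.88 (95% interval -4.95 to 1.18) and *Omd* by -1.81 (-4.06 to 0.44). For *Prelp* and *Fmod* the estimates were -0.62 and -0.60, for *Bgn* -0.20, for *Lum* 0.30 and for *Dcn* 0.76 (95% interval -1.62 to 3.14). The exact permutation p lay between 0.1 for *Prelp* and 1 for *Kera* and *Epyc*. The SD within a label, on this scale, reached 2.96 for *Ogn* under bone and 1.90 for *Dcn* under osteoblasts, wider than the difference between the labels in both genes.

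**Figure D2:**
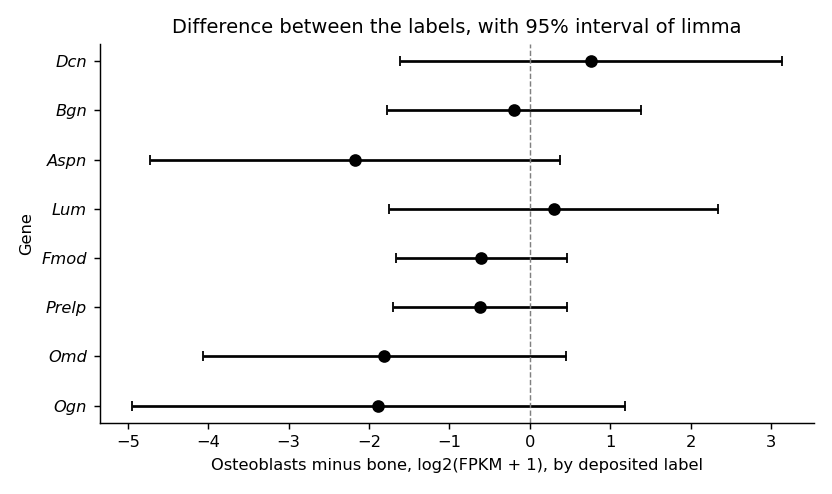
Points are the limma estimates of the difference osteoblasts minus bone in log2(FPKM + 1) for the 8 members tested, and bars are 95% intervals. Every interval includes 0, from the widest, that of *Ogn* (-4.95 to 1.18), to those of *Fmod* and *Prelp*.

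Single libraries decided these calls. Without bone 3, limma called *Aspn* (-3.60, adjusted p = 0.0227), *Ogn* (-3.55, adjusted p = 0.0489) and *Omd* (-3.03, adjusted p = 0.0489) lower under the label osteoblasts, where 0.0908% of all genes were called lower and 0.545% higher. Without osteoblasts 1, *Aspn* was called lower by limma (-2.84, adjusted p = 0.0343), where 0.314% of all genes were called lower and 2.16% higher. Without bone 3, the bone libraries left were all low in *Hbb-bt*, and without osteoblasts 1, the osteoblasts libraries left were all high in it. Either removal thus brought the labels nearer to the division by *Hbb-bt*, and these calls cannot part the labels from that division. With both of these libraries left out, an alternative chosen after seeing the data, 2 libraries stood against 2. The libraries left out were those farthest from others of their label in *Hbb-bt*, and the 4 that remained are parted by *Hbb-bt* exactly as they are by label, so that the values describe the division by globin and are no test of the labels. The differences were then -4.47 for *Ogn*, -4.26 for *Aspn*, -3.63 for *Omd*, 2.75 for *Dcn* and 1.95 for *Lum*, and 6.59% of all genes passed the limma threshold as lower and 18.2% as higher.

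Ordered by value instead of label, 6 of the 8 members tested did not overlap between the libraries above and below 1000 FPKM of *Hbb-bt*. *Dcn* and *Lum* were higher in all 3 libraries above it (81.1 to 88.6 against 7.81 to 15.9 FPKM for *Dcn*), as were 38.4% of all genes tested. *Bgn*, *Aspn*, *Omd* and *Ogn* were lower in all 3 (0.953 to 2.18 against 18.1 to 96.7 FPKM for *Ogn*), as were 16.9% of all genes tested. Orders without overlap were thus common in these data, and the 6 members are described here with no test. In FPKM the gap was narrow for *Bgn*, whose lowest value in its higher set was 1.22 times the highest in the other. For *Ogn* the gap was wide, at 8.34 times. The *Bgn* gap lay between bone 2 and bone 3, where unnamed features held 71.5% and 28.5% of all FPKM. Its width depends on the scaling, and no gap was measured after scaling. The order of these 6 members was the same in FPKM, TPM and coverage, and after scaling to named genes or to the 75th percentile. *Fmod* overlapped in FPKM and was lower in all 3 globin-rich libraries after either scaling, and *Prelp* was so after scaling to named genes. In these bulk samples, fewer cells of a type and less RNA per cell cannot be told apart, and the part of the blood, cartilage and muscle RNA in these orders was not tested.

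The make-up of the family RNA differed accordingly. The 10 genes summed to 597, 301 and 272 FPKM in bone 1, 2 and 3, and to 426, 244 and 233 FPKM in osteoblasts 1, 2 and 3. As a share of the FPKM of all named genes, the family made up 0.1004%, 0.0846% and 0.109% in bone 1 and 2 and osteoblasts 1, and 0.0283 to 0.0311% in the globin-rich libraries. Unnamed features held 71.5% of all FPKM in bone 2 and 65.0% in osteoblasts 1, against 27.4 to 30.7% in the other 4. *Bgn* held 79.2% of this sum in osteoblasts 1 and 37.0 to 48.3% in the other 5 libraries. *Dcn* held 30.0%, 33.2% and 38.1% in bone 3 and osteoblasts 2 and 3, and 1.83 to 2.84% in the others. *Ogn* held 16.2%, 13% and 4.26% in bone 1 and 2 and osteoblasts 1, and at most 0.935% in the others. These shares depend on the measure, as FPKM and coverage were not in one ratio for all members. Of the summed coverage, *Bgn* held 61.5% in osteoblasts 1 and 27.1 to 33.4% in the other 5 libraries. *Dcn* held 16.0 to 21.0% of it in the globin-rich libraries and 1.07 to 1.17% in the others, and *Ogn* 22.3%, 17.6% and 8.14% in bone 1 and 2 and osteoblasts 1.

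**Figure D3:**
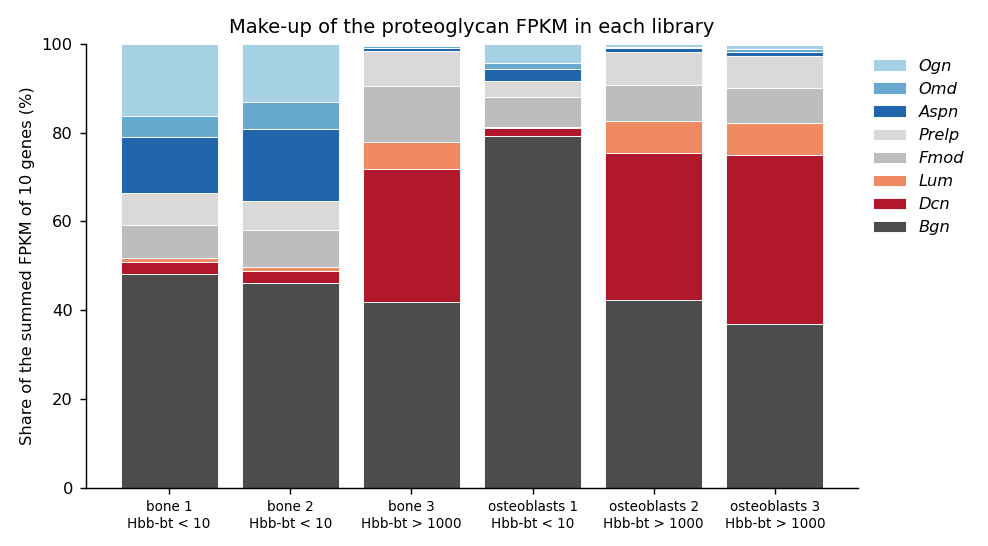
Each bar is one library, divided by the share in percent that each gene takes of the summed FPKM of the 10 genes, with *Kera* and *Epyc* too low to draw. The red *Dcn* segment is 30.0 to 38.1% in the libraries marked with *Hbb-bt* above 1000 FPKM and at most 2.84% in the others, and by coverage it would be 16.0 to 21.0% and at most 1.17%.

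Ratios within a library do not depend on its scaling. The ratio of *Dcn* to *Bgn* was 0.0551, 0.0617 and 0.716 in bone 1, 2 and 3, and 0.0232, 0.784 and 1.03 in osteoblasts 1, 2 and 3. On the log2 scale it was -2.89 ± 2.09 (SD, n = 3) under bone and -1.91 ± 3.05 (SD, n = 3) under osteoblasts, a difference of 0.98 that is smaller than either SD (two-sided exact permutation p = 0.8). The ratio of *Ogn* to *Dcn* ranged from 0.0117 in bone 3 to 6.08 in bone 1. By contrast *Fmod* was 1.04 to 1.92 times *Prelp*, its neighbour on Chr. 1, and *Aspn* was 0.653 to 2.31 times *Ogn*. Levels of different genes depend on the measure. The FPKM of *Dcn* was 3.65 to 3.75 times the value that its mean coverage gives, and that of *Bgn* 2.57 to 2.79 times, while for *Lum*, *Prelp*, *Aspn* and *Fmod* this factor was at most 1.08. For *Ogn* it was 1.11 to 1.13, and for *Omd* it differed between libraries, at 1.01 in osteoblasts 2, 1.14 in bone 3 and 1.36 to 1.398 in the other 4. By coverage, *Dcn* stood at 21.6 to 23.9 on the FPKM scale in the 3 libraries where it was high, near the 16.5 to 17.4 of *Lum*.

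The Chr. 13 genes were set beside their neighbours, which were chosen after their values were seen. *Ecm2*, a further class I relative that lies before *Aspn*, was at 2.70, 0.846 and 1.13 FPKM in bone 1, 2 and 3, and at 1.01, 1.97 and 1.56 FPKM in osteoblasts 1, 2 and 3. Its values did not follow those of *Aspn*, *Omd* and *Ogn*. *Nol8*, which lies after *Ogn* and encodes a nucleolar protein, was at 5.36, 2.99 and 2.22 FPKM in bone 1 and 2 and osteoblasts 1, and at 0.511 to 1.35 FPKM in the other 3. *Iars*, the next gene, which encodes an isoleucyl-tRNA synthetase, overlapped between these sets of libraries, at 10.6 to 18.4 FPKM in all 6. *Cenpp*, a centromere protein gene on the minus strand, spans *Ecm2*, *Aspn*, *Omd* and *Ogn* and was at 4.00 to 5.47 FPKM in the globin-rich libraries and 0 to 0.581 FPKM in the others. The strand of the reads is not given in the sources used here, so reads of overlapping genes may not be told apart, and the 0.520 to 2.27 FPKM of *Aspn*, *Omd* and *Ogn* in the globin-rich libraries are uncertain to that extent.

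**Figure D4:**
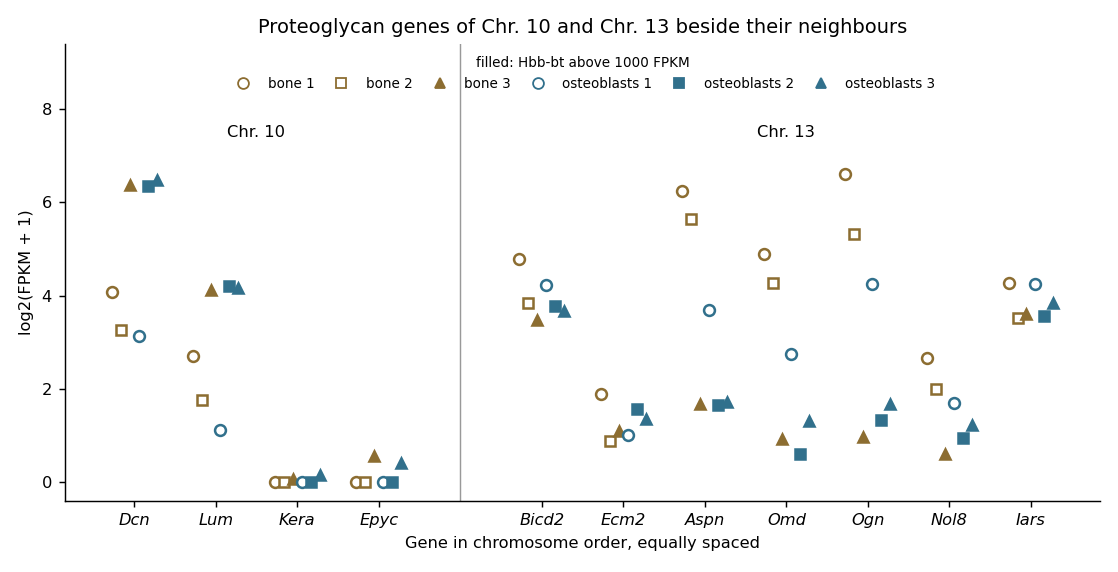
Points are log2(FPKM + 1) per library for the members on Chr. 10 and for members and neighbours on Chr. 13, in chromosome order with equal spacing. Filled points (*Hbb-bt* above 1000 FPKM) lie above the open ones for *Dcn* and *Lum* and below them for *Aspn*, *Omd*, *Ogn*, *Nol8* and *Bicd2*, while *Ecm2* and *Iars* overlap.

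Of 8 further genes of the family, 7 were found by name and 5 were tested, with 0 called by limma in either direction. *Chad*, which encodes the cartilage protein chondroadherin, was at 81.6, 78.7 and 63.0 FPKM in bone 3 and osteoblasts 2 and 3, and at most 0.0442 FPKM in the others. The cartilage markers were high in the same libraries, as given above. *Tsku* encodes tsukushi, a secreted inhibitor of growth factor signalling. It was at 4.56 to 9.30 FPKM under the label bone and at 2.25 to 4.27 FPKM under osteoblasts. The labels did not overlap, with osteoblasts lower, as in 0.438% of all genes tested (limma adjusted p = 0.999 for *Tsku*). Between the globin-rich and other libraries *Tsku* overlapped. *Chadl*, named for its likeness to chondroadherin, was at 2.59 to 4.03 FPKM where *Chad* was high and at 0.156 to 0.482 FPKM elsewhere. Among the 5 tested, 2 were higher and 0 lower in all globin-rich libraries (40% and 0%), beside the 38.4% and 16.9% of all genes.

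Enzymes that build the glycosaminoglycan chains were measured alongside. For the linker that joins chain and core protein, 5 of 6 enzymes were found and tested, and limma called 0. Among these 5, 1 was lower and 2 were higher in all globin-rich libraries (20% and 40%), beside the 16.9% and 38.4% of all genes. *B4galt7*, which adds a galactose to this linker, was at 18.9, 10.9 and 12.2 FPKM in bone 1 and 2 and osteoblasts 1, and at 6.08 to 8.87 FPKM in the others, while *B3gat3* (8.34 to 18.6 FPKM) and *Fam20b* (7.22 to 15.6 FPKM), which finish and phosphorylate the linker, overlapped between these libraries. Of 16 enzymes of chondroitin and dermatan sulfate, 14 were tested, 0 were called, and the median log2 difference was -0.10. *Chpf*, a chondroitin polymerizing factor, was at 44.2, 19.4 and 23.6 FPKM in bone 1 and 2 and osteoblasts 1 and at 4.76 to 6.004 FPKM in the others. *Chsy1*, a chondroitin synthase, was at 15.9 to 29.1 against 12.2 to 14.4 FPKM, and *Chpf2*, a relative of *Chpf*, overlapped at 7.75 to 24.2 FPKM. Among the 14, 5 were lower and 3 higher in all globin-rich libraries (35.7% and 21.4%), beside the 16.9% and 38.4% of all genes. Of 5 keratan sulfate enzymes 3 were tested and 0 were called, namely *B4galt4*, *Chst2* and *B3gnt7*, none of which exceeded 3.44 FPKM in any library.

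Of 9 genes for binding partners and processing, 8 were tested and 0 were called by limma, with a median log2 difference of -0.79. The type I collagen genes *Col1a1* and *Col1a2*, which encode the main protein of bone matrix, were the most abundant at 1499 to 3332 and 2001 to 3981 FPKM, and they overlapped between the globin-rich and other libraries. *Col3a1*, which encodes type III collagen of soft connective tissue, was at 1394, 852 and 555 FPKM in bone 1 and 2 and osteoblasts 1, and at 145 to 284 FPKM in the other 3. *Tgfb1*, a growth factor that decorin and biglycan bind, was at 37.6 to 47.3 FPKM in the globin-rich libraries and 12.8 to 30.7 FPKM in the others. *Tgfb2*, *Tgfb3*, *Col5a1* and *Col5a2* were lower in all of the former. Among the 8, 5 were lower and 1 was higher in all globin-rich libraries (62.5% and 12.5%), beside the 16.9% and 38.4% of all genes.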

How the data were processed

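By the study's methods and the labels, total RNA was isolated, TruSeq libraries were sequenced as 75 bp paired-end reads, and reads were aligned to GRCm38 with HISAT2 2.0.5 and quantified with StringTie 1.3.3. The authors deposited 1 table per library with coverage (mean reads per base), FPKM and TPM, and no counts. Features with one name were summed, and unnamed features, which held 27.4 to 71.5% of the FPKM of a library, were left out. Depth was read from the commonest quotient of coverage and FPKM in each table.

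The labels were compared on log2(FPKM + 1) for genes that averaged 1 FPKM or more with limma 3.58.1 in R 4.3.3 (trend, Benjamini-Hochberg adjustment over all 12112 genes, threshold 0.05), and by exact permutation tests for single values. Fold changes on this scale understate those of low genes. The limma step was checked on simulated data for the label comparison over 12112 genes, with 200 genes changed by 2 on the log2 scale. Of these it recovered 200 at a spread of 0.3 and 164 at a spread of 0.56, with 10 and 11 other calls. The simulated spread was equal for all genes and independent between libraries. In these data the SD within a label reached 2.96 for *Ogn*, so the recovery does not apply to members that vary so widely. The rest was done in Python 3.11.15 (pandas 2.3.3, numpy 2.4.6, matplotlib 3.10.9).

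The members and gene lists were chosen with earlier results of these data known. Named are all members, the 5 genes most like *Dcn* and, for most lists, up to 3 genes by mean FPKM and defining markers. Genes named outside this rule, *Nol8*, *Iars*, *Bicd2*, *Cenpp*, *Ecm2*, *Tnnt3*, *Tgfb1*, *Tgfb2* and *Tgfb3*, were chosen after their values were seen. *Alpl*, *Sp7*, *Runx2*, *Pdpn*, *Col5a1* and *Col5a2* were also named outside it, so that every tested gene of their lists is given. The red cell, neutrophil, cartilage and muscle lists are given as counts or sums, with only *Hbb-bt* and *Tnnt3* named. Alternatives covered pseudocounts, filters, TPM, scalings, the trend, the replicate block, coverage in place of FPKM and leaving out libraries.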

Additional observations from a re-analysis of the deposited data

Results flagged for a closer look

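An unnamed feature on the minus strand inside *Aspn* (Chr. 13, 49544687 to 49550152) belongs to no gene compared here and was above the FPKM that 3 read pairs on 1 kb give in 5 of the 6 libraries. It was at 0.851, 0.295 and 0.894 FPKM in bone 1, 2 and 3, and at 0.716 and 0.939 FPKM in osteoblasts 2 and 3. In osteoblasts 1 it was at 0.0592 FPKM, below that floor. Its values did not follow those of *Aspn* on the other strand, which was at 75 FPKM in bone 1 and at 2.20 FPKM in bone 3.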

How the results depend on the processing

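Precision is limited by 3 libraries a label, which cannot give an exact p below 0.1, and the files hold no counts. Apart from leaving out libraries and the replicate block, every alternative called 0 genes and 0 members, and each of the 8 members tested kept its direction. Relative to the main value of 0.12, the median log2 difference over all genes fell to -0.03 on scaling to named genes. A replicate block in limma gave 46 genes higher and 3 lower, and 0 members. Libraries with the same number deviated from their label means with correlations of 0.84, -0.75 and 0.83 across 12112 genes, so the numbers were not taken as pairs, and not every library correlated best with its own number. Leaving out 1 library at a time gave 0 to 262 genes called higher and 0 to 38 lower, and 0 to 0 members higher and 0 to 3 lower. The member differences then ranged from 0.10 to 1.85 for *Dcn*, -0.81 to 0.20 for *Bgn*, -0.26 to 1.31 for *Lum*, -0.81 to -0.41 for *Fmod*, -3.03 to -1.04 for *Omd*, -3.55 to -0.73 for *Ogn*, -3.60 to -1.31 for *Aspn*, -0.82 to -0.28 for *Prelp*, -0.025 to 0.055 for *Kera* and -0.19 to 0.14 for *Epyc*, and the log2 ratio of *Dcn* to *Bgn* from 0.0014 to 2.74. *Bgn* turned positive without bone 1 (0.20) or osteoblasts 2 (0.04) or 3 (0.17), *Lum* negative without bone 2 (-0.26) or osteoblasts 2 (-0.23) or 3 (-0.20), *Kera* negative without osteoblasts 3 (-0.025), and *Epyc* positive without bone 3 (0.14) or osteoblasts 1 or 2 (0.02). Without bone 3 and osteoblasts 1 together, chosen after seeing the data and leaving the division by *Hbb-bt* as that by label, limma called 2203 genes higher and 798 lower, 2 members higher (*Dcn* 2.75, *Lum* 1.95) and 3 lower (*Omd* -3.63, *Ogn* -4.47, *Aspn* -4.26), and *Epyc* turned to 0.21. Without bone 3, *Omd* (-3.03), *Ogn* (-3.55) and *Aspn* (-3.60) were called, and without osteoblasts 1 *Aspn* (-2.84). Either removal also brought the labels nearer to the division by *Hbb-bt*. The cause of these changes was not tested beyond the fewer libraries.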

Other observations

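Of 4344 genes other than members with a mean FPKM of at least 10, the 5 whose log2(FPKM + 1) ran closest to that of *Dcn* over the 6 libraries were *Pttg1*, *Gm8186*, *Slc2a3*, *Sema4a* and *Fech*. *Pttg1* encodes securin of dividing cells, *Slc2a3* a glucose transporter and *Fech* ferrochelatase of heme synthesis. *Fech* was at 22.2, 10.8 and 172 FPKM in bone 1, 2 and 3, and at 11.3, 169 and 199 FPKM in osteoblasts 1, 2 and 3. The likeness was measured by the correlation across libraries, which fall into separate sets in these genes, so no coefficient is given. Such likeness was common, since 861 of the 4344 genes correlated with *Dcn* above 0.95, and it sets these 5 apart by rank alone.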
